A study of Homo sapiens with 14 samples.

Results

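Cancer-testis antigens are proteins made in the germ cells of the testis, and in some cases of the fetal ovary or placenta, that many tumours also make. They are represented here by every gene whose symbol starts with MAGEA, MAGEB, MAGEC, GAGE, PAGE, XAGE, SSX or CTAG, together with 6 single germ-cell genes, ACTL8, AURKC, DDX4, DAZL, SYCP3 and TEX14. The rule gave 91 genes among the 26171 entries of the K562 table and 83 among the 19196 of the SIGM5 table, all of them also in the first 91. 1 antisense symbol was left out, and 66 of the 91 genes lie on the X chromosome. The CTAG and SSX prefixes also took in SSX2IP, a centrosome protein named for binding SSX2, and the CTAGE genes, of which CTAGE5 works in protein export from the endoplasmic reticulum in most tissues.

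Polyadenylated RNA was sequenced from 14 libraries in 7 groups of 2. K562 is a human erythroleukaemia line, and SIGM5 a human acute myeloid leukaemia line. Of the K562 clones, K18 (TET2-/-) received DMSO. K01 (TET2+/+) received 12.5 µM TETi76, 100 µM ascorbate, TETi76 and ascorbate at those doses together, or DMSO. SIGM5 received 12.5 µM TETi76 or DMSO, and each treatment ran for 24 h. TETi76 is the series' inhibitor of TET enzymes, and ascorbate supports the activity of these enzymes. Each genotype is 1 clone, so TET2 loss and differences between clones cannot be told apart. The labels number the libraries of a group without tying them to separate cultures, so the p-values measure a spread that may be technical.

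In somatic cells most of these genes are silent, and methylation of the cytosines in CG pairs at their promoters is a main part of that silencing. TET enzymes oxidise methylated cytosine and so help to remove the mark. Several of the families arose by repeated copying on the X chromosome, which left groups of genes with nearly the same transcript. Their products differ in what they do: MAGE proteins bind RING-type ubiquitin ligases, SSX proteins repress transcription in the nucleus, and AURKC, SYCP3, DDX4, DAZL and TEX14 belong to meiosis and germ-cell formation.

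The promoters of 6 members that the results turn on are shown because methylation is placed on CG pairs, and their CG pairs are in capitals. They are RefSeq sequences of the GRCh38.p14 build, running from 250 bases before to 50 bases after the start of the gene, 5′ to 3′ on the gene's own strand. ACTL8 lies at chr1:17755083-17755382 (+), AURKC at chr19:57230773-57231072 (+), PAGE1 at chrX:49695935-49696234 (-), PAGE5 at chrX:55220096-55220395 (+), MAGEB1 at chrX:30243481-30243780 (+) and MAGEB2 at chrX:30215313-30215612 (+).
ACTL8: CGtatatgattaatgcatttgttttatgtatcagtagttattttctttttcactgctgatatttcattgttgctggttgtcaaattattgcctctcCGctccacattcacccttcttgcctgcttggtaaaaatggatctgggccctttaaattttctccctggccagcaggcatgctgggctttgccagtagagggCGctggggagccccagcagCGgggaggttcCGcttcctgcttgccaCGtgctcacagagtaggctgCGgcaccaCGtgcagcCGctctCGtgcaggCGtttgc
AURKC: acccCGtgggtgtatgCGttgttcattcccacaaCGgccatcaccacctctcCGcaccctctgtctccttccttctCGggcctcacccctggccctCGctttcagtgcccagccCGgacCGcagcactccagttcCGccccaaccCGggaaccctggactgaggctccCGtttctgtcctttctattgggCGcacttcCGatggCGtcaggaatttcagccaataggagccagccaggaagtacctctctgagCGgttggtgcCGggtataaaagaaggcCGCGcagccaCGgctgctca
PAGE1: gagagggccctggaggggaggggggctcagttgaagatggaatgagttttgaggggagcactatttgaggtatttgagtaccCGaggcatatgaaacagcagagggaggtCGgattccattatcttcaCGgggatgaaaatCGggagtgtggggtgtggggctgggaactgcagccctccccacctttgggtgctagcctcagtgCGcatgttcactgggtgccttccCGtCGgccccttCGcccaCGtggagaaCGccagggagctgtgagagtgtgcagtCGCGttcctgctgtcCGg
PAGE5: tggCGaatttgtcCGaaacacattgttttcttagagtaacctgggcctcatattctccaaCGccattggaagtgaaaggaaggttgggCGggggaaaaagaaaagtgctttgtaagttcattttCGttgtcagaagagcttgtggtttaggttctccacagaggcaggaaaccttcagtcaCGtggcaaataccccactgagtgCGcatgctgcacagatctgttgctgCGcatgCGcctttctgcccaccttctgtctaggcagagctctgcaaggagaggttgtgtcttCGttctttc
MAGEB1: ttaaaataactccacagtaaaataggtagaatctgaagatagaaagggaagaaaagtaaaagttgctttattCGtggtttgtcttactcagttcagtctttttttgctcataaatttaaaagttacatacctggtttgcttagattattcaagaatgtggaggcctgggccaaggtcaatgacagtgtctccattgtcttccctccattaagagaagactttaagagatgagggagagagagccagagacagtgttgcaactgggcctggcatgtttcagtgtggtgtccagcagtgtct
MAGEB2: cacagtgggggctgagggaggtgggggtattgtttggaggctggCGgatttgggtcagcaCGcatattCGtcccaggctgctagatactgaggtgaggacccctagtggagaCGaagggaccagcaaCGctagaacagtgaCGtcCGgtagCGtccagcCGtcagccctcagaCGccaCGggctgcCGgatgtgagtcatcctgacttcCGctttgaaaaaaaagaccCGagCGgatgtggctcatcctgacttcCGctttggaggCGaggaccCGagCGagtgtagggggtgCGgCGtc
The number of CG pairs was 11 in the ACTL8 promoter, 19 in AURKC, 13 in PAGE1 and 10 in PAGE5. The neighbouring genes MAGEB1 and MAGEB2 had 1 and 21. A RefSeq promoter was at hand for 63 members, whose median was 13 CG pairs, against 14 over all 35116 promoters of the table. 3 motifs that contain a CG pair were searched on both strands. CACGTG, the core of sites that MYC, MAX and related proteins bind, occurred in 36.5% of the members' promoters and in 7.30% of all promoters. The members do not count separately here, since 12 of the 23 promoters with CACGTG belong to GAGE copies with nearly the same sequence. The others were 5 of CTAGE, 4 of PAGE, 1 of XAGE and that of ACTL8. TCCCGC, the core of E2F6-type sites, occurred in 36.5% of the members' promoters, against 26.9% of all, and in 12 of 12 GAGE and 6 of 7 SSX promoters. CCGGAA, the core of ETS-type sites, occurred in 4.80% and 17.2%. No motif was counted as a binding site.

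SIGM5 libraries held 18893636 to 23639198 counts. The K562 values were fragment numbers corrected for gene length and for sequencing depth (FPKM). From the smallest values of genes with a single transcript, a rough estimate gave 4.55 to 8.85 M reads (M, mega) for a K562 library. It was sought only within a range fixed in advance and rested on 28 to 68 genes a library, so it does not measure the depth. Replicates correlated at 0.9868 or more in K562 and 0.9974 or more in SIGM5 (Pearson, log2 scale). TET2 messenger RNA was at 3.31 and 2.95 FPKM in the libraries labelled K18, against 1.99 and 2.40 FPKM in K01 in DMSO (log2 difference 0.37, SE 0.22, limma adjusted p = 0.314), which does not test the label, since an edited gene can still be transcribed. All 8 erythroid markers reached 1 FPKM in K562, and all 8 myelomonocytic markers reached 1 CPM, a count scaled to a fixed library total, in SIGM5. The 8 myelomonocytic markers also reached 1 FPKM in K562, where they summed to 57.8 to 75.5 FPKM in K18 and 47.6 to 73.8 FPKM in K01. Within K18 the 2 libraries differed in several of them, from 0.529 to 4.20 FPKM in MPO and from 0.154 to 5.10 FPKM in PRTN3. Of the 8 erythroid markers, 1 reached 1 CPM in SIGM5. The erythroid markers summed to 4494 to 4700 FPKM in K18 and to 6779 to 10160 FPKM in the K01 libraries. The embryonic globin HBE1 had 1233 to 1255 FPKM in K18, against a median of 3988 FPKM over the 10 libraries. KLF1, TFRC and GATA1 lay above their medians in both K18 libraries. The part of these differences in the results was not tested.

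In K562 most families had expressed members, but the share of members expressed differed between families. Of the 91 members, 31 reached 1 FPKM in at least 1 of the 10 libraries, 23 reached 5 FPKM and 13 reached 30 FPKM. A further 31 were above 0 but under 1 FPKM, and 29 were listed at 0 in every library. Members that reached 1 FPKM came from PAGE (6 of 6), MAGEA (5 of 14), SSX (5 of 11), MAGEB (4 of 10), MAGEC (2 of 3), GAGE (2 of 22), CTAG (1 of 3) and CTAGE (1 of 10), with SSX2IP, ACTL8, AURKC, SYCP3 and TEX14. None of the 5 XAGE genes was above 0. Among the germ-cell genes, the RNA helicase DDX4 was at 0 in all 10 libraries and the translation factor DAZL was above 0 in 1, at 0.139 FPKM. Of the 8 male germ cell markers outside the families, 6 were at 0 in every K562 library, protamines PRM1 and PRM2 among them. Their sum was 1.46 to 2.75 FPKM in K18 and 0.696 to 3.16 FPKM in K01.

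A listing of 0 has to be read with the sequence in mind. Of the 77 members with a transcript in GENCODE release 29, 27 had under 10% of their 31-base words to themselves, and 15 had no such word. Among the 21 members with a transcript that were listed at 0, 15 were under 10%, the CTAG1A and CTAG1B copies of the antigen NY-ESO-1 among them. The 6 others at 0, DDX4 and MAGEB4 for example, had 70% or more of their words to themselves. Of the 27 members with a transcript that reached 1 FPKM, only GAGE12J was under 10%. Between copies of GAGE, XAGE1 or SSX4 the files cannot show which gene the reads came from.

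PAGE5 had the highest level of any member in all 10 libraries, with 154 and 132 FPKM in K18 and 117 to 171 FPKM in K01. In K18 it was followed by SSX1 (104 and 100.4 FPKM) and PAGE1 (104 and 99.6 FPKM), which overlapped. In K01 in DMSO it was followed by SSX1 (55.7 and 55.6 FPKM), MAGEC2 (47.3 and 41.9 FPKM), MAGEA12 (37.3 and 38.8 FPKM), MAGEA3 (33.6 and 28.1 FPKM) and MAGEA6 (31.7 and 33.5 FPKM). The last 2 overlapped.

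**Figure D1:**
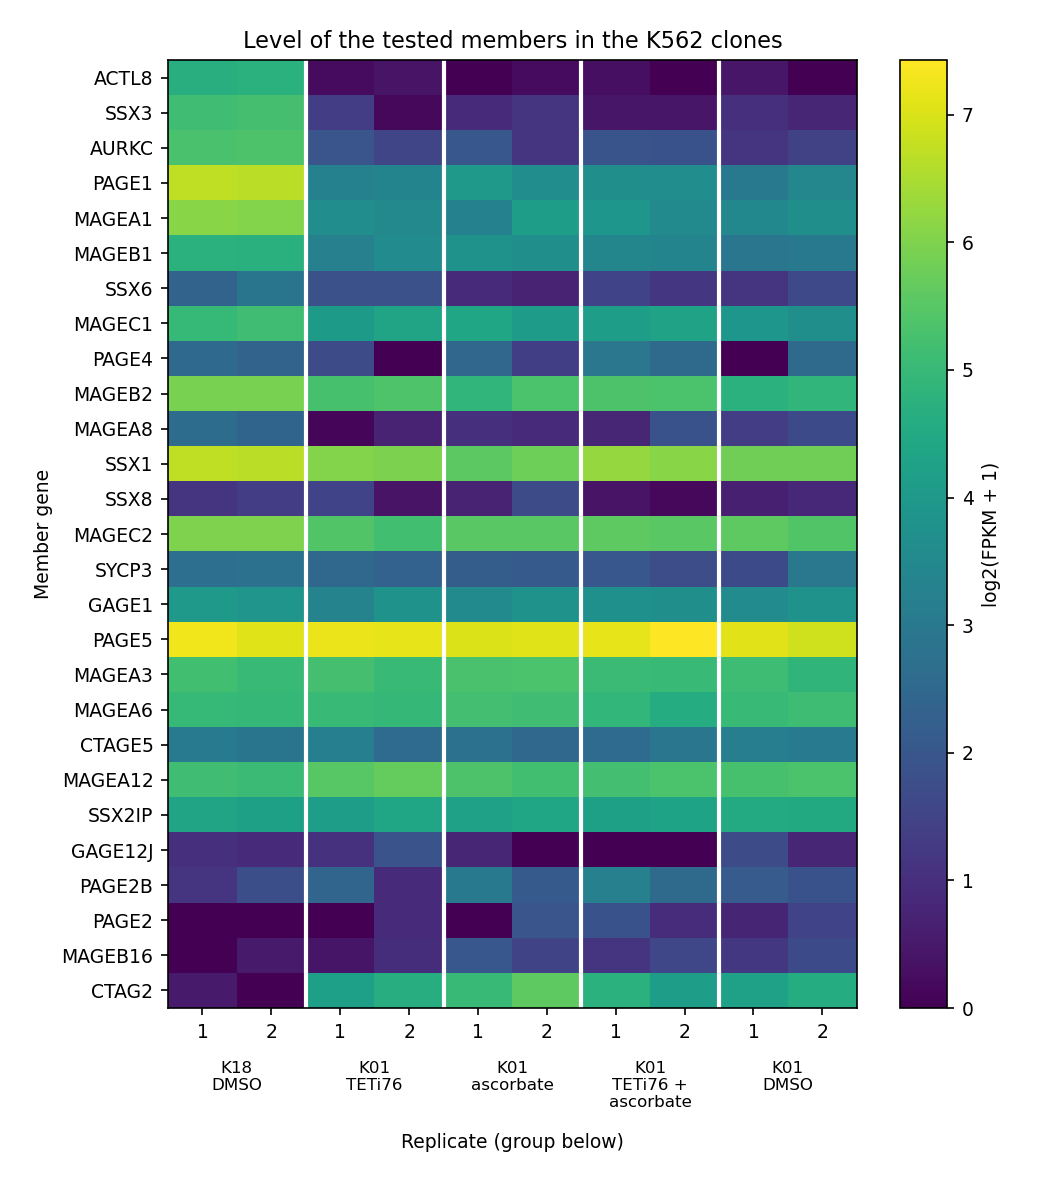
Level of the 27 members tested in K562, as log2(FPKM + 1) by colour, with 1 column per library and groups separated by white lines. The upper rows are bright in the K18 columns and dark or mid-toned in the K01 columns, the bottom row (CTAG2) is the reverse, and rows such as PAGE5 and MAGEA3 have nearly 1 tone throughout.

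The summed messenger RNA of these families was higher in K18 than in K01, though not in every family. Summed over the members without SSX2IP and CTAGE, the level was 848 and 823 FPKM in K18, against 450.5 and 450.1 FPKM in K01 in DMSO. All 6 libraries of treated K01 lay between 491 and 528 FPKM, so K18 stood above every K01 library. As these are bulk samples, fewer cells that express a gene and less RNA per cell cannot be told apart.

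By family, SSX summed to 147 ± 3.10 FPKM in K18 and 59.6 ± 0.880 FPKM in K01 in DMSO (SD, n = 2 each). MAGEB summed to 87.7 ± 0.874 FPKM in K18 and 36.5 ± 2.92 FPKM in K01. PAGE stood at 252 ± 18.6 FPKM in K18 and 141 ± 6.57 FPKM in K01. For MAGEC the sums were 95.1 ± 3.63 FPKM in K18 and 57.6 ± 5.09 FPKM in K01, and for MAGEA 169 ± 7.53 FPKM in K18 and 115 ± 0.449 FPKM in K01. GAGE summed to 15.6 ± 1.47 FPKM in K18 and 13.5 ± 0.0195 FPKM in K01. CTAG went the other way, with 0.218 ± 0.309 FPKM in K18 and 20.6 ± 3.70 FPKM in K01, all of it from CTAG2.

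**Figure D2:**
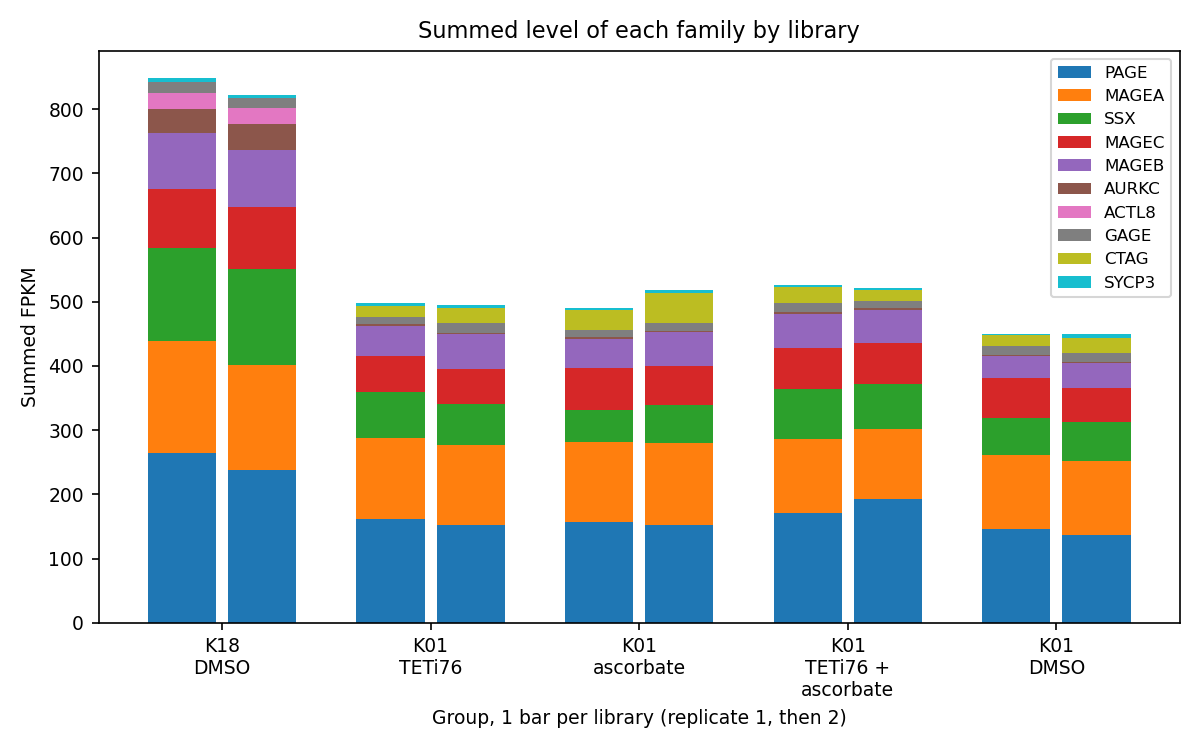
Summed FPKM of each family (stacked colours) in each of the 10 K562 libraries, 2 bars per group, from a zero baseline. The K18 bars reach 848 and 823 FPKM, and the K01 bars lie between 450.1 and 528 FPKM.

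Of the 27 members with at least 1 FPKM in at least 2 libraries, 11 were higher in K18 than in K01 in DMSO at an adjusted p under 0.05 (limma) and 2 were lower. Over all 12535 genes tested, 6.84% were higher and 8.20% lower. The median difference was 0.48 on the log2(FPKM + 1) scale over the 27 members and 0.00 over all genes. Over the 62 members above 0 in any library, with no filter, it was 0.08. This scale understates the change of genes near or under 1 FPKM. The K18 values lay above all 8 K01 libraries for 13 of the 27 and below all 8 for CTAG2 and MAGEA12, where 11.5% and 9.98% of all genes did so.

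ACTL8, on chromosome 1, encodes an actin-like protein of the testis. It was at 25.0 and 25.7 FPKM in K18, against 0.376 and 0 FPKM in K01 in DMSO. No K01 library exceeded 0.376 FPKM, and 3 of the 8 were at 0. ACTL8 thus passed the filter of 1 FPKM in 2 libraries only through K18, the group where it was high, so it had to differ. Its difference was 4.49 (SE 0.25, limma adjusted p = 8.99e-06, and 4.92e-05 in the fit without a filter). It was the 1 member of the 27 that needed the K18 libraries to be tested. The reverse held for 4 of the 27, in which no K18 library reached 1 FPKM, so they were tested only through K01. CTAG2 and MAGEB16, the 2 called as lower in K18, were among these 4. In the fit without a filter their limma adjusted p was 0.000252 and 0.0699. AURKC, the aurora kinase of meiotic divisions, stood at 38.1 and 39.8 FPKM in K18, against 1.19 and 1.69 FPKM in K01 in DMSO. Its difference was 4.04 (SE 0.27, limma adjusted p = 3.11e-05), and the K01 libraries ranged up to 3.08 FPKM. Both transcripts are fully distinguishable, with all of their 31-base words unique to the gene.

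Within SSX the genes differed by very different amounts. SSX3 was at 34.6 and 36.9 FPKM in K18, against 1.02 and 0.733 FPKM in K01 in DMSO (difference 4.29, SE 0.33, limma adjusted p = 7.12e-05). SSX1, which synovial sarcoma fuses to SS18, was well expressed in both clones, at 104 and 100.4 FPKM in K18, against 55.7 and 55.6 FPKM in K01 (difference 0.87, SE 0.09, limma adjusted p = 0.000372). SSX6 was at 4.19 and 6.43 FPKM in K18 and at 1.15 and 2.14 FPKM in K01 (difference 1.26, SE 0.26, limma adjusted p = 0.012). It did not pass without K18 replicate 2 or without K01 DMSO replicate 1 (limma adjusted p = 0.117 and 0.0859). SSX8 was low in both, at 1.18 and 1.55 FPKM in K18 and 0.584 and 0.767 FPKM in K01, and did not pass. Only 53.2% of the SSX3 words and 66.7% of the SSX1 words are unique, so reads may have been split between them. SSX6 and SSX8 had no transcript in the word counts, so how distinct they are from the other SSX genes is not known.

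Among the PAGE genes, PAGE1 passed and PAGE5 did not. PAGE1 was at 104 and 99.6 FPKM in K18, against 6.97 and 9.75 FPKM in K01 in DMSO (difference 3.47, SE 0.16, limma adjusted p = 3.11e-06). PAGE5 was at 154 and 132 FPKM in K18 and at 135 and 117 FPKM in K01, and the groups overlapped. Its difference was 0.18 (SE 0.11, limma adjusted p = 0.298). PAGE4, a disordered protein studied in the prostate, ranged widely between replicates, with 4.80 and 4.20 FPKM in K18 and 0 and 4.96 FPKM in K01. PAGE2B had 1.20 and 2.46 FPKM in K18 and 3.40 and 2.68 FPKM in K01, and PAGE2 had 0 in both K18 libraries and 0.696 and 1.83 FPKM in K01. None of these 3 passed. PAGE3 reached 1 FPKM in 1 library alone, K18 replicate 1, at 1.08 FPKM.

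In MAGEA, 1 of the 5 tested genes passed. MAGEA1, the antigen through which the family was found with patients' T cells, was at 67.9 and 64.7 FPKM in K18, against 9.99 and 12.04 FPKM in K01 in DMSO (difference 2.49, SE 0.24, limma adjusted p = 0.000243). The near-identical MAGEA3 and MAGEA6, partners of the ligase TRIM28, were at 35.0 and 31.3 FPKM and at 30.4 and 30.02 FPKM in K18. In K01 they were at 33.6 and 28.1 FPKM and at 31.7 and 33.5 FPKM. Only 28.9% of the MAGEA3 words and 27.0% of the MAGEA6 words are unique, so reads may have been split between them. MAGEA12 was at 34.6 and 32.6 FPKM in K18 and at 37.3 and 38.8 FPKM in K01 (difference -0.18, SE 0.10, limma adjusted p = 0.279). MAGEA8 was at 5.19 and 4.21 FPKM in K18 and at 1.53 and 2.18 FPKM in K01 (difference 1.002, SE 0.35, limma adjusted p = 0.0922), with both K18 libraries above all 8 of K01.

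MAGEB1 and MAGEB2, close neighbours on the X chromosome, were both higher in K18. MAGEB1 was at 26.0 and 25.4 FPKM in K18, against 6.55 and 7.07 FPKM in K01 in DMSO (difference 1.77, SE 0.13, limma adjusted p = 5.05e-05). MAGEB2 was at 59.8 and 59.9 FPKM in K18, against 26.1 and 28.6 FPKM in K01 (difference 1.11, SE 0.13, limma adjusted p = 0.000649). Between them lie MAGEB3, at most 0.193 FPKM in any library, and MAGEB4, at 0 in all. MAGEB16 went the other way, with 0 and 0.464 FPKM in K18 and 1.29 and 2.20 FPKM in K01 (difference -1.16, SE 0.33, limma adjusted p = 0.0444), and without any 1 of the 4 libraries its call was lost (limma adjusted p = 0.0773 to 0.242). MAGEB10 reached 1 FPKM only in K18 replicate 2, at 1.71 FPKM.

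Both expressed MAGEC genes were higher in K18. MAGEC1, known as CT7 in myeloma, was at 30.2 and 34.6 FPKM in K18, against 13.9 and 12.1 FPKM in K01 in DMSO (difference 1.25, SE 0.14, limma adjusted p = 0.000492). MAGEC2, a partner of TRIM28, was at 62.3 and 62.9 FPKM in K18, against 47.3 and 41.9 FPKM in K01 (difference 0.48, SE 0.09, limma adjusted p = 0.00804). Without K18 replicate 2 or without K01 DMSO replicate 2, MAGEC2 did not pass (differences 0.47 and 0.40, limma adjusted p = 0.0597 and 0.0655).

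CTAG2, the LAGE-1 antigen and a close relative of NY-ESO-1, was the only strongly expressed member of K01 that was nearly absent from K18. It was at 0.437 and 0 FPKM in K18, against 17.9 and 23.2 FPKM in K01 in DMSO, and every K01 library had at least 16.6 FPKM. The difference was -4.16 (SE 0.28, limma adjusted p = 3.11e-05). Its CTAG1A and CTAG1B relatives were at 0 in all 10 libraries, and 47.9% of the CTAG2 words are unique to it.

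GAGE1 was at 15.3 and 13.7 FPKM in K18 and at 10.98 and 12.8 FPKM in K01 in DMSO (difference 0.27, SE 0.16, limma adjusted p = 0.33). GAGE12J, at 0.998 and 0.873 FPKM in K18 and 2.25 and 0.740 FPKM in K01, shares nearly all its sequence with other GAGE copies. SYCP3, a lateral element of the synaptonemal complex, was at 5.51 and 5.996 FPKM in K18 and at 2.16 and 6.88 FPKM in K01. The K01 libraries lay on either side of those of K18. Of the members by name only, SSX2IP was at 19.3 and 17.7 FPKM in K18 and 22.2 and 21.7 FPKM in K01, and CTAGE5 was at 7.31 and 6.37 FPKM in K18 and 7.98 and 7.55 FPKM in K01. None of these 5 passed. SSX9 reached 2.56 FPKM in K18 replicate 2 and 0 in replicate 1, and was not tested.

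**Figure D3:**
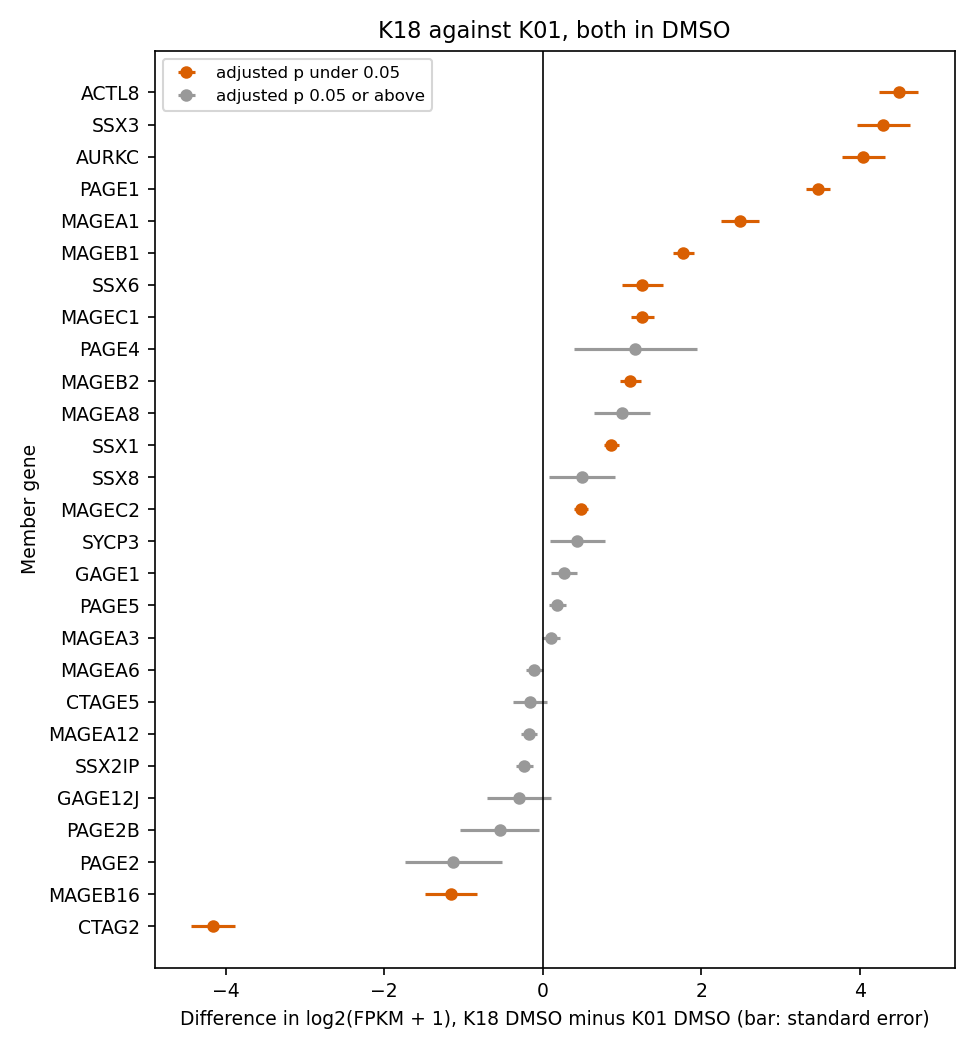
Difference in log2(FPKM + 1), K18 minus K01, both in DMSO, for each of the 27 members tested, with the standard error as a bar and members at an adjusted p under 0.05 in orange. 11 orange points lie right of zero, led by ACTL8 at 4.49, and 2 lie left of it, with CTAG2 at -4.16.

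**Figure D4:**
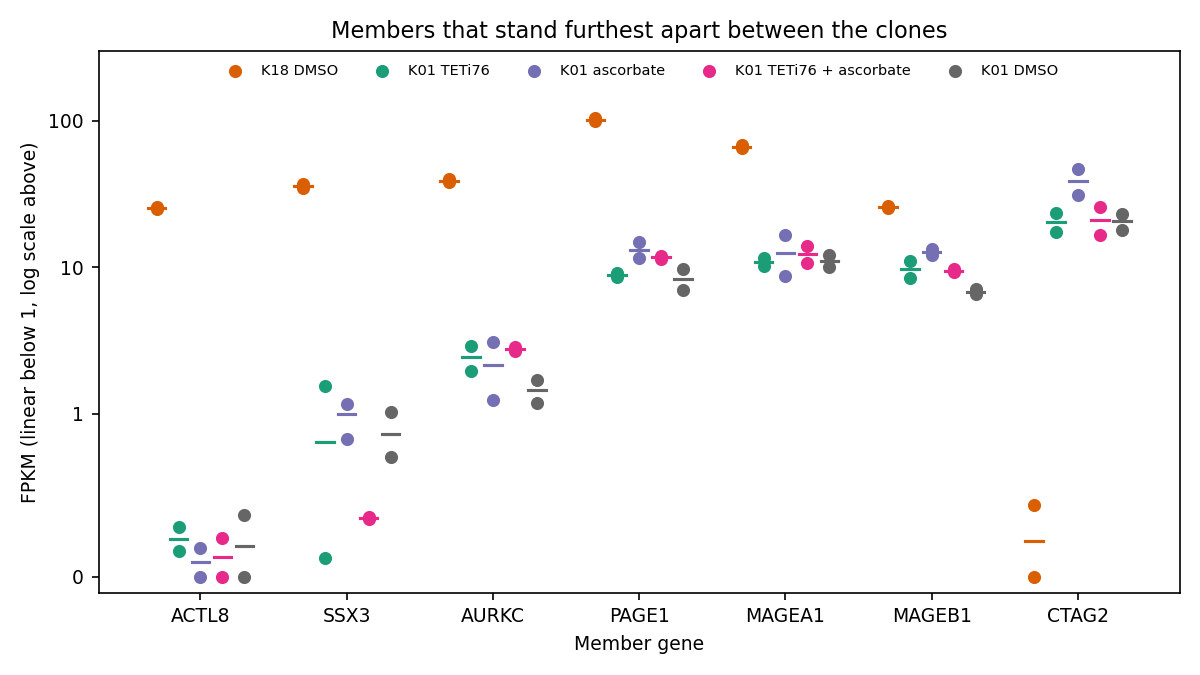
FPKM of 7 members in each of the 10 K562 libraries (points) with the group mean (line), on an axis that is linear below 1 and logarithmic above. The 7 were chosen as the members furthest apart between the clones. K18 thus stands apart from all 8 K01 libraries in each gene, above them in 6 and below them in CTAG2. Of the 27 members tested, K18 lay above all K01 libraries in 13 and below them in 2.

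The position of the genes was looked at in 2 ways. Of the 22 members on the X chromosome that were tested, 9 were higher and 2 lower in K18, while of 401 other X-linked genes 37 (9.23%) were higher and 47 (11.7%) lower. On the autosomes, outside the families, 6.71% of 11824 genes were higher and 8.23% lower. The median difference of the other X-linked genes was 0.00. The 2 nearest annotated genes on each side of the 13 called members comprised 45 genes outside the families, 9 of which were in the table and 3 tested. These were ZNF264 and ZNF805 beside AURKC, at differences of 0.43 (SE 0.24) and 0.31 (SE 0.26), and USP27X-AS1 beside PAGE1, at 0.68 (SE 0.27), and none passed (limma adjusted p = 0.273, 0.478 and 0.132).

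Among germ-cell genes outside the families, 6 were higher in K18. Of 55 other cancer-testis and germline genes, 23 were tested. The 6 higher make 26.1%, against 6.84% of all genes, and the 2 lower 8.70%, near the 8.20% of all genes. The median difference was -0.04. Of the 23, 5 would not have been tested without the K18 libraries. TUBA3C, TEX19, RNF17 and TPTE, all among the 6 higher, were such genes. They entered the test only through the group where they were high, so the 26.1% rests largely on the filter. In 5 others no K18 library reached 1 FPKM, so these were tested only through K01. The counts are therefore given as a description. TUBA3C, a testis alpha-tubulin, was at 24.1 and 22.9 FPKM in K18 and at 0.231 and 0 FPKM in K01 in DMSO. PASD1, a cancer-testis inhibitor of the circadian clock, was at 29.2 and 26.5 FPKM in K18 and at 0.920 and 1.16 FPKM in K01. TEX19, which restrains transposons in mouse germ cells, was at 16.5 and 18.5 FPKM in K18 and at 0.299 and 0.551 FPKM in K01. RNF17, a tudor protein of mouse spermatids, was at 5.25 and 5.11 FPKM in K18 and at 0.276 and 0.585 FPKM in K01. Among 6 tested MAGE genes that most tissues express, MAGED1 was higher, at 32.6 and 32.2 FPKM in K18 and 8.36 and 6.19 FPKM in K01 (difference 2.03, SE 0.25, limma adjusted p = 0.00086), and so was MAGED2 (difference 0.55, SE 0.13, limma adjusted p = 0.0197). They make 33.3% of the 6, where 6.84% of all genes were higher.

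A list of 24 genes tied to germline gene silencing (the silencing list) was tested in full. It also holds TET1, TET2, TET3 and TDG, which act in removing methylation rather than in silencing. None of the 24 was higher in K18 and 4 (16.7%) were lower, where 6.84% of all genes were higher and 8.20% lower. DNMT3B, a methyltransferase that sets new methylation, was at 19.9 and 19.7 FPKM in K18 and at 27.4 and 26.5 FPKM in K01 in DMSO (difference -0.42, SE 0.08, limma adjusted p = 0.0076). DNMT3A, of the same kind, had a difference of -0.55 (SE 0.16, limma adjusted p = 0.0454), the maintenance enzyme DNMT1 one of -0.25 (SE 0.06, limma adjusted p = 0.0299), and MAX one of -0.35 (SE 0.09, limma adjusted p = 0.0243). Of 10 tested partners of the members, TRIM27 was higher in K18 (difference 0.32, SE 0.08), and the mitotic kinase AURKA (difference -0.45, SE 0.09) and INCENP (difference -0.46, SE 0.12), a partner of the aurora kinases, were lower. These are 10% higher and 20% lower, where 6.84% and 8.20% of all genes were.

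In K01, few members passed for TETi76 against DMSO. At an adjusted p under 0.05 (limma), 2 of the 27 members (7.41%) were higher and 0 lower, while 9.61% of all genes were higher and 13.7% lower. The share of members higher was thus near that of all genes, and members that did not pass may still have changed. With quantile normalization 4 members were higher and 1 lower. The median difference was 0.07 over the members and -0.01 over all genes. MAGEB2 was at 37.6 and 40.7 FPKM with TETi76, against 26.1 and 28.6 FPKM in DMSO (difference 0.50, SE 0.13, limma adjusted p = 0.0224). MAGEB1 was at 8.50 and 11.002 FPKM with TETi76, against 6.55 and 7.07 FPKM in DMSO (difference 0.45, SE 0.13, limma adjusted p = 0.0331). In both genes the treated libraries lay above those in DMSO, but leaving out a library often ended the call. MAGEB2 lost its call without any 1 of the 4 (limma adjusted p = 0.0581 to 0.121), and MAGEB1 without either DMSO library or TETi76 replicate 2 (limma adjusted p = 0.0851 to 0.192). Without TETi76 replicate 1, MAGEB1 still passed (difference 0.62, limma adjusted p = 0.0177).

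With ascorbate present in both arms, TETi76 gave 1 member higher and 2 lower of the 27, where 12.9% of all genes were higher and 17.8% lower. With quantile normalization 2 members were higher and 0 lower, and MAGEA6 and CTAG2 did not pass (limma adjusted p = 0.0594 and 0.0625). SSX1 was at 76.0 and 68.1 FPKM with TETi76 and ascorbate, against 45.8 and 54.6 FPKM with ascorbate (difference 0.52, SE 0.09, limma adjusted p = 0.00295), and passed under all 12 alternative settings. MAGEA6 was at 29.3 and 23.01 FPKM with TETi76 and ascorbate, against 36.1 and 34.8 FPKM with ascorbate (difference -0.43, SE 0.11, limma adjusted p = 0.016). Its near-identical copy MAGEA3 did not pass (difference -0.26, SE 0.11, limma adjusted p = 0.101), and how shared reads were assigned is not known. CTAG2 was at 25.6 and 16.6 FPKM with both, against 31.1 and 47.0 FPKM with ascorbate (difference -0.86, SE 0.28, limma adjusted p = 0.043). Both kept their direction, but MAGEA6 lost its call under 5 and CTAG2 under 8 of the 12 alternatives. Without replicate 2 of TETi76 with ascorbate, the difference was -0.27 for MAGEA6 and -0.56 for CTAG2 (limma adjusted p = 0.0832 and 0.231). MAGEA6 also lost its call without either ascorbate library, and CTAG2 without ascorbate replicate 2.

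Ascorbate against DMSO gave 1 member higher and 0 lower, where 0.168% of all genes were higher and 0.311% lower. That member was MAGEB1, at 13.2 and 12.1 FPKM with ascorbate, against 6.55 and 7.07 FPKM in DMSO (difference 0.81, SE 0.13, limma adjusted p = 0.0395). Its call was lost under 7 of 12 alternatives, among them the removal of any 1 of the 4 libraries (limma adjusted p = 0.158 to 0.221). TETi76 with ascorbate against TETi76 alone gave no member at an adjusted p under 0.05 (limma). At that threshold 0.734% of all genes passed, 0.247% as higher and 0.487% as lower. The interaction of TETi76 with ascorbate likewise gave 0 members at an adjusted p under 0.05, where 0.630% of all genes passed. As deposited these genes were 35 higher (0.279%) and 44 lower (0.351%), against 38 higher and 29 lower with quantile normalization. At an unadjusted p under 0.05, 7 members passed for TETi76 with ascorbate against TETi76 alone and 5 for the interaction. The share of all genes at an unadjusted p under 0.05 is not given here, so these member counts cannot be set against it. These comparisons share libraries, so their lists are not independent of each other.

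**Figure D5:**
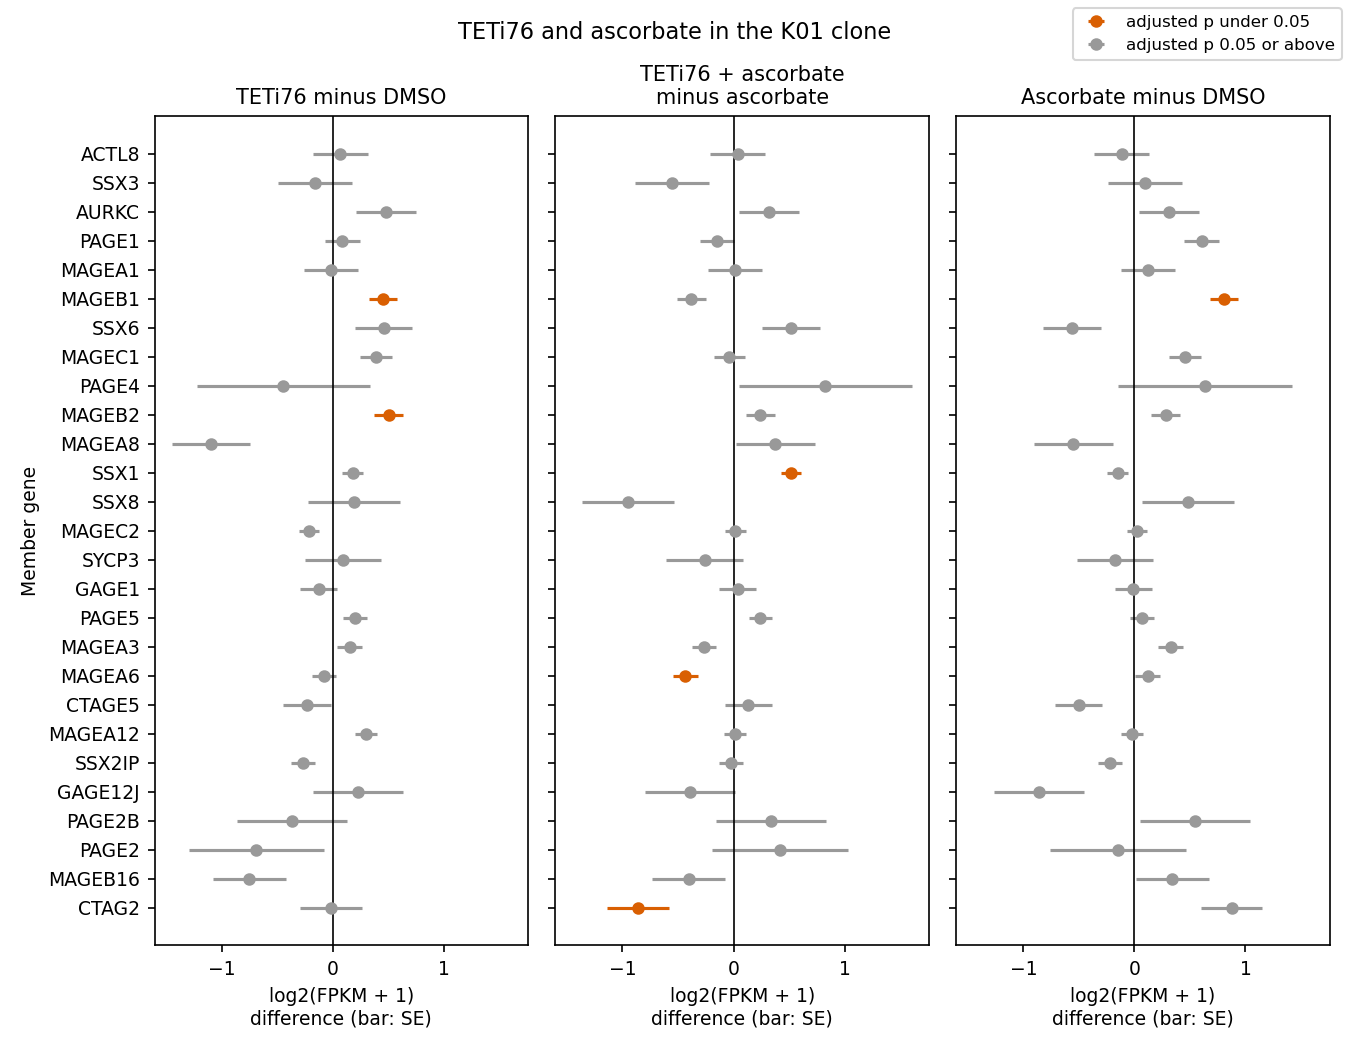
Difference in log2(FPKM + 1) for the 27 members in K01 under TETi76 against DMSO, TETi76 with ascorbate against ascorbate, and ascorbate against DMSO, with standard errors as bars and an adjusted p under 0.05 in orange. 2, 3 and 1 points are orange in the panels from left to right, and no called difference exceeds 0.86 in size.

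None of the genes furthest above K01 in K18 reached its K18 level in any treated K01 library. ACTL8 was at 0.159 and 0.307 FPKM with TETi76, 0 and 0.173 FPKM with ascorbate and 0.238 and 0 FPKM with both. SSX3 was at 1.54 and 0.114 FPKM with TETi76, 0.843 and 1.16 FPKM with ascorbate and 0.354 and 0.364 FPKM with both. AURKC was at 2.90 and 1.95 FPKM with TETi76, 3.08 and 1.24 FPKM with ascorbate and 2.83 and 2.69 FPKM with both. None of the 3 genes passed in any K01 comparison. PAGE1 was at 8.58 and 9.11 FPKM with TETi76, 14.9 and 11.5 FPKM with ascorbate and 11.99 and 11.5 FPKM with both, and its difference for ascorbate against DMSO was 0.61 (SE 0.16, limma adjusted p = 0.175). MAGEA1 was at 11.6 and 10.2 FPKM with TETi76, 8.65 and 16.5 FPKM with ascorbate and 13.9 and 10.6 FPKM with both. CTAG2 was at 17.3 and 23.6 FPKM with TETi76, and overlapped with its level in DMSO.

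Beyond MAGEB1, MAGEB2, SSX1, MAGEA6 and CTAG2, no member passed in a K01 comparison. MAGEC1 was at 15.4 and 19.3 FPKM with TETi76, 20.1 and 16.4 FPKM with ascorbate and 17.03 and 18.3 FPKM with both. MAGEC2 was at 41.2 and 35.4 FPKM with TETi76, 45.6 and 44.8 FPKM with ascorbate and 46.7 and 44.9 FPKM with both. MAGEA12 was at 43.997 and 50.4 FPKM with TETi76 (difference from DMSO 0.30, SE 0.10, limma adjusted p = 0.0555), 40.2 and 35.1 FPKM with ascorbate and 36.3 and 39.4 FPKM with both. MAGEA3 stood at 36.9 and 31.8 FPKM with TETi76, 38.2 and 39.4 FPKM with ascorbate and 32.5 and 31.8 FPKM with both. MAGEA6 was at 31.8 and 29.8 FPKM with TETi76 alone, and SSX1 at 65.1 and 61.4 FPKM. MAGEB1 and MAGEB2 had 9.71 and 9.27 FPKM and 40.2 and 39.0 FPKM with both agents, and MAGEB2 had 28.4 and 39.2 FPKM with ascorbate.

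PAGE5, the most abundant, was at 147 and 142 FPKM with TETi76, 131 and 132 FPKM with ascorbate and 142 and 171 FPKM with both. GAGE1 stood at 9.10 and 12.8 FPKM with TETi76, 10.6 and 13.01 FPKM with ascorbate and 12.4 and 11.9 FPKM with both. SYCP3 had 4.63 and 4.05 FPKM with TETi76, 3.54 and 3.31 FPKM with ascorbate and 3.03 and 2.38 FPKM with both. Replicates of the lower members spread widely. MAGEA8 was at 0.0809 and 0.625 FPKM with TETi76 (difference from DMSO -1.10, SE 0.35, limma adjusted p = 0.0525), 0.989 and 0.882 FPKM with ascorbate and 0.727 and 2.66 FPKM with both. SSX6 was at 2.56 and 2.59 FPKM with TETi76, 0.868 and 0.664 FPKM with ascorbate and 1.82 and 1.25 FPKM with both. MAGEB16 was at 0.327 and 0.946 FPKM with TETi76, 3.08 and 1.87 FPKM with ascorbate and 1.22 and 2.01 FPKM with both.

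PAGE2B ranged from 0.834 to 8.41 FPKM and PAGE4 from 0 to 6.63 FPKM over the 8 K01 libraries. In detail, PAGE2B had 4.32 and 0.834 FPKM with TETi76, 7.04 and 3.30 FPKM with ascorbate and 8.41 and 4.88 FPKM with both. PAGE4 had 2.21 and 0 FPKM with TETi76, 4.51 and 1.61 FPKM with ascorbate and 6.63 and 4.93 FPKM with both. None of the K01 comparisons of these genes passed. SSX2IP lay at 16.6 and 19.6 FPKM with TETi76, 17.9 and 19.5 FPKM with ascorbate and 17.8 and 18.95 FPKM with both. CTAGE5 lay at 8.25 and 5.03 FPKM with TETi76, 5.83 and 4.60 FPKM with ascorbate and 5.10 and 6.55 FPKM with both. TEX14, a protein of the bridges between germ cells, reached 1.37 and 0.765 FPKM with both agents, was at 0 in both DMSO libraries and did not exceed 0.287 FPKM elsewhere. It was not tested.

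Outside the families, TETi76 in K01 gave 0 higher and 1 lower (4.35%) of 23 other cancer-testis and germline genes. Over all genes 9.61% were higher and 13.7% lower. GTSF1, which assists small RNAs in germ cells, was at 195 and 192 FPKM with TETi76 and at 226 and 231 FPKM in DMSO (difference -0.24, SE 0.05, limma adjusted p = 0.0126). Against ascorbate, TETi76 with ascorbate gave 1 higher (4.35%) and 4 lower (17.4%). Over all genes 12.9% were higher and 17.8% lower, so the share lower was near that of all genes. SPANXC, a sperm protein, was at 2.49 and 1.70 FPKM with both agents and at 0 in the 8 other K562 libraries, so it entered the test only through the group where it was high. PRAME, an antigen of leukaemia and melanoma, was at 971 and 943 FPKM with ascorbate and at 788 and 778 FPKM in DMSO (difference 0.29, SE 0.04, limma adjusted p = 0.0176). It was the 1 call of this list (4.35%) for ascorbate against DMSO, where 0.168% of all genes were higher. SPANXC and PRAME were also the 2 genes of the list (8.7%) that passed, as higher, for TETi76 with ascorbate against TETi76. Over all genes 0.247% were higher there.

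The silencing list, with its TET genes and TDG, gave 2 higher and 4 lower with TETi76, against DMSO. It gave 1 higher and 6 lower with TETi76 and ascorbate, against ascorbate. Of the 24 tested these are 8.33% higher and 16.7% lower without ascorbate, close to the 9.61% and 13.7% of all genes, and 4.17% higher and 25% lower with it, where 12.9% and 17.8% of all genes were. DNMT1 was at 52.1 and 51.8 FPKM with TETi76, against 71.9 and 73.5 FPKM in DMSO (difference -0.48, SE 0.06, limma adjusted p = 0.000902). MAX (difference -0.63, SE 0.09) and the histone methyltransferase SETDB1 (difference -0.56, SE 0.10) were lower, and E2F6 (difference 0.46, SE 0.13), a repressor of germline promoters, was higher. DNMT3B was at 35.8 and 38.5 FPKM with TETi76 and ascorbate, against 23.8 and 24.6 FPKM with ascorbate (difference 0.60, SE 0.08, limma adjusted p = 0.000579). TET1 was among the 6 lower in that comparison (difference -0.61, SE 0.13, limma adjusted p = 0.0072). Among the 10 tested partners, TETi76 gave 4 higher (40%) and 0 lower against DMSO, where 9.61% and 13.7% of all genes were. These were TRIM27 (difference 0.63, SE 0.08), AURKA (0.45, SE 0.09), the importin KPNA2 (0.32, SE 0.08) and SS18 (0.31, SE 0.08). With ascorbate in both arms it gave 0 higher and 3 lower (30%), where 12.9% and 17.8% of all genes were. The 3 lower were AURKB (difference -0.68, SE 0.16), CDCA8 (-0.26, SE 0.08) and BIRC5 (-0.25, SE 0.08). Of the 6 tested MAGE genes that most tissues express, TETi76 gave MAGED2 higher (difference 0.45, SE 0.13) and MAGEF1 lower (difference -0.57, SE 0.15) against DMSO. Each is 16.7% of the 6, where 9.61% of all genes were higher and 13.7% lower. With ascorbate in both arms TETi76 gave 1 higher (16.7%) and 3 lower (50%), where 12.9% and 17.8% of all genes were. MAGED2 was higher (difference 0.48, SE 0.13), and MAGED1 (-0.83, SE 0.25), MAGEH1 (-0.78, SE 0.16) and MAGEF1 (-0.70, SE 0.15) were lower.

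In SIGM5 few members had any count. Of the 83 members in its table, 77 had no count in any of the 4 libraries. For the 29 of these with 70% or more of their 31-base words to themselves, that allows up to 0.0345 CPM each over the 86999666 counts (3 counts, counting error only), and a library alone allows up to 0.127 to 0.159 CPM. Another 27 of the 77 had under 10% of their words to themselves, and since the handling of shared reads is not given in the sources used here, a 0 sets no such limit for them. Of the 31 members that reached 1 FPKM in K562, 27 are in the SIGM5 table, and 22 of these had no count there, PAGE5, PAGE1, CTAG2 and all MAGEA, MAGEB and MAGEC genes among them. FPKM and CPM are different scales, so levels are not compared between the lines. The myelomonocytic markers of SIGM5 were all present, and 5 erythroid markers were at 0.

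The 6 members with any count were SSX2IP, ACTL8, AURKC, SYCP3, TEX14 and CTAGE1. The widely expressed SSX2IP had the most, with 318 and 320 counts under TETi76 and 229 and 362 in DMSO (difference -0.10, SE 0.16, edgeR adjusted p = 0.827). ACTL8 had 5 and 6 counts under TETi76, against 16 and 24 in DMSO, which is 0.211 and 0.262 CPM against 0.847 and 1.11 CPM. It was the 1 member of 2 tested that passed, as lower with TETi76 (log2 difference -2.06, SE 0.58, edgeR quasi-likelihood adjusted p = 0.0458), where 4.13% of the 11340 genes tested passed, 1.54% as lower and 2.58% as higher. The call was lost with DESeq2 and when TETi76 replicate 1, TETi76 replicate 2 or DMSO replicate 2 was left out (edgeR adjusted p = 0.608, 0.261 and 0.176). AURKC had 4 and 1 counts under TETi76 and 3 and 1 in DMSO, SYCP3 6 and 3 against 0 and 12, and TEX14 1 and 8 against 3 and 4. CTAGE1 had 1 count, in DMSO.

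Other germline genes gave no call in SIGM5 by edgeR, of 9 tested, and 0 at an unadjusted p under 0.05. Of the silencing list, DNMT3A was lower with TETi76, at 37.95 and 41.2 CPM, against 58.9 and 49.98 CPM in DMSO (difference -0.48, SE 0.12, edgeR adjusted p = 0.0277). It was the 1 call of 23 tested (4.35%), near the 4.13% of all genes that passed in either direction. Over all genes 1.54% were lower.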

How the data were processed

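Polyadenylated RNA of 14 libraries was analysed from the deposited tables. The SIGM5 table holds raw counts per gene as deposited by the authors. The deposited K562 table, named as counts, holds FPKM made by the authors, judged from its values, and FPKM cannot be told from RPKM there. Per the submitters' processing notes, hg19, STAR, edgeR 3.24.3 and limma 3.38.3 were used, with no roles given; the read counter and the use of strand are not given in the sources used here, so reads of antisense or overlapping genes cannot be told apart. Single-library values equalled the matrix columns in all 14 libraries.

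For K562, log2(FPKM + 1) of all 10 libraries entered a single model of the 5 groups (limma 3.58.1, robust, with a mean-variance trend), over 12535 genes that reached 1 FPKM in at least 2 libraries. 26 entries without a gene name (at most 0.0657% of a library's FPKM sum) and 2272 short-RNA entries (35.6% to 40.1%) were left out. SIGM5 counts were fitted with edgeR 4.0.16 (quasi-likelihood, robust, TMM, filterByExpr; 11340 genes). The SE of an edgeR difference was taken from its F value. Each test was two-sided; p-values were adjusted by Benjamini-Hochberg over all genes tested, and 0.05 was the threshold (R 4.3.3). Both fits were tested on simulated data in which only better-expressed genes were changed, so low members such as ACTL8 in SIGM5 were not covered. Alternatives were pseudocounts, filters, scalings, DESeq2 1.42.0, the groups compared alone, a replicate block and leaving out each library.

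Every member tested, or reaching 1 FPKM or 1 CPM in any library, is named, those called or reaching 5 with all their values. Up to 4 called genes per comparison of 4 other lists are named. Members and lists were chosen with earlier results of these data known. Chromosomes of 83 members came from RefSeq symbols; transcripts for the word counts came from GENCODE release 29.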

Additional observations from a re-analysis of the deposited data

How the results depend on the processing

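The 13 members called in K18 against K01 stayed within 1.5 times under every alternative, with 9 to 12 when 1 library was left out, and no called difference changed direction in any of the 7 comparisons. ACTL8, AURKC, SSX3, PAGE1, MAGEA1, MAGEB1, MAGEB2, MAGEC1, SSX1 and CTAG2 passed under each alternative that gave them a value; MAGEB16, MAGEC2 and SSX6 lost their call under some. For TETi76 against DMSO in K01 (2 members) the count was 5 with quantile normalization, 1 with only the groups compared and 0 to 1 with a library left out. For ascorbate against DMSO (1 member) it was 0 without a filter, with only the groups compared, with the replicate block and, 0 to 0, with a library left out. For TETi76 with ascorbate against ascorbate (3 members) it was 1 with only the groups compared and 1 to 4 with a library left out. In the comparisons with ascorbate added to TETi76 and in the interaction, 0 to 0 were called with a library left out. In SIGM5 (1 member) it was 0 with DESeq2 or a filter of 1 CPM in 2 libraries, that filter leaving ACTL8 out, and 0 to 1 with a library left out. Over the 62 members above 0 in K562 the median difference of K18 minus K01 was 0.08, and over family sums 0.49, on the log2(FPKM + 1) scale. The cause of these shifts was not tested, apart from the filter. A lone library left in a group was assumed to vary like the others.

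Replicate numbers did not pair the libraries: deviations of same-numbered K562 libraries correlated at -0.023 to 0.051. With the replicate block 13 members were called in K18 against K01, 3 for TETi76 against DMSO, 0 for ascorbate, 2 for TETi76 with ascorbate against ascorbate and 1 in SIGM5. In SIGM5 the correlation was -0.235, and a crossed pairing, chosen after seeing the data, called 1 member and 1291 genes, against 468 without a block. Members under about 1 FPKM in K562 have to be read with caution. The depth there was only roughly estimated, at 4.55 to 8.85 M reads, within a range fixed in advance. A 0 in SIGM5 allows up to 0.0345 CPM for members with distinct sequence and sets no limit for near-identical copies.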
